A study of Mus musculus with 7 samples.

Results

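The collagen genes of 4T1 mouse mammary tumours are described here by class. Members were the nuclear protein-coding genes whose symbol is Col, a number, the letter a and a number, which gave 44 of 21961 genes. Of these, 11 encode fibrillar collagens, 8 encode basement membrane collagens (the Col4 genes, Col15a1 and Col18a1) and 25 encode other collagens. Tumours of BALB/c mice (genotype label WT) had grown in the mammary fat from 4T1-12b(luc) cells, a luciferase-carrying subline of a mouse mammary carcinoma, so every group shares the tumour line and host strain. From about 150 mm3 on, each tumour received 6 injections of 50 µl, 1 every other day, and was labelled day 12. In 3 libraries the injections held saline. In 1 library, Cont sEV, they held small vesicles shed by 4T1 cells given DMSO, and in 3 libraries, TIS sEV, vesicles of 4T1 cells treated with 100 ng/ml nocodazole, a microtubule poison. Donor cells were treated for 72 h and released for 72 h before vesicles were collected. The labels do not state that libraries come from separate mice, so spreads and p-values measure only the spread between these libraries, which may be technical.

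Collagens are extracellular proteins whose chains wind into helices and assemble outside the cell. Fibrillar collagens, chiefly types I, III and V, form the fibrils of connective tissue and are made mainly by fibroblasts. Collagen IV forms the sheet under epithelia and around vessels, where collagens XV and XVIII are also found. The other collagens include ones that form beaded filaments, coat fibrils or anchor epithelia to the stroma. This class also holds short-chain network collagens and transmembrane collagens.

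Levels are TPM rescaled so that nuclear protein-coding genes sum to 1000000 in each library, called coding TPM below. TPM is corrected for gene length, so levels can be compared between genes, but it keeps no depth, so no counting interval is given. Coding genes took 56.8% to 74.7% of all TPM in 6 libraries and 28.6% in TIS sEV replicate 2, where nuclear ribosomal RNA took 22.9% against 0.807% to 2.40% elsewhere. That library stands apart, and results that rest on it are given with and without it. The epithelial tumour markers Krt8 and Krt18 were at 764 to 2836 coding TPM in every library, and the summed fibroblast and endothelial markers were above 0 in each. Fewer cells of a type and less RNA per cell cannot be told apart in these bulk samples.

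Promoter sequences are shown for genes whose levels are described next: Col4a1 and Col4a2, a head-to-head pair that kept a steady ratio, Col1a2 and Col3a1, fibrillar genes whose levels in TIS sEV replicate 2 were nearer to the other TIS sEV libraries than those of most collagens, and Col18a1, a collagen whose saline and TIS sEV levels did not overlap. They are RefSeq windows of GRCm38.p6 (250 bases before to 50 after a start site, 5′ to 3′ on the gene's strand), and 35 of the 44 members had a window. Capitals mark matches, on either strand, to the CCAAT box, to the GC box letters GGGCGG and to the TATA box letters TATAAA, none of which overlap.
Col4a1, chr8:11312777-11313076 (-): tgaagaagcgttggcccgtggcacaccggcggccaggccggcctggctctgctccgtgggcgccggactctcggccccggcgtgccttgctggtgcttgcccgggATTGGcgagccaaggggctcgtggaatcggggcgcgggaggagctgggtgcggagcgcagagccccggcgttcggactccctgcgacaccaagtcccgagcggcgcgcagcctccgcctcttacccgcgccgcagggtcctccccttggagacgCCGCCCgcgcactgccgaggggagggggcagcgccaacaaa
Col4a2, chr8:11312555-11312854 (+): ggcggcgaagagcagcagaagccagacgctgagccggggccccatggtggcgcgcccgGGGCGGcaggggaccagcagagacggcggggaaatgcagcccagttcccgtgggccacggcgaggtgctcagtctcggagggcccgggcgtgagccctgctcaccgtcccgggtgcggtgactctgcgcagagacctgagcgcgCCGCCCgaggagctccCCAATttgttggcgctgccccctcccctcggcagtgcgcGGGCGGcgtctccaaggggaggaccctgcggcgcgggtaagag
Col1a2, chr6:4505368-4505667 (+): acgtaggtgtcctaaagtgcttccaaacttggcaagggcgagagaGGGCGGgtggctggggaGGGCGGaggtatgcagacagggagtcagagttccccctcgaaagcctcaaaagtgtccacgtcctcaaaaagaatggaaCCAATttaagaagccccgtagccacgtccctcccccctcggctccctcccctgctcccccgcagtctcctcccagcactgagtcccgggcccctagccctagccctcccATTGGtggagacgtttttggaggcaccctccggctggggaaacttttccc
Col3a1, chr1:45311288-45311587 (+): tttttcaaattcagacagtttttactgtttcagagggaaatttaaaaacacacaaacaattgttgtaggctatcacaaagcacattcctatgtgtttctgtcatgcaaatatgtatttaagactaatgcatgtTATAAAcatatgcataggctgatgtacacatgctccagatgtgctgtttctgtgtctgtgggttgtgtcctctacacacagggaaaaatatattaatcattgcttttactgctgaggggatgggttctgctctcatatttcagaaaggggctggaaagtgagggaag
Col18a1, chr10:77166481-77166780 (-): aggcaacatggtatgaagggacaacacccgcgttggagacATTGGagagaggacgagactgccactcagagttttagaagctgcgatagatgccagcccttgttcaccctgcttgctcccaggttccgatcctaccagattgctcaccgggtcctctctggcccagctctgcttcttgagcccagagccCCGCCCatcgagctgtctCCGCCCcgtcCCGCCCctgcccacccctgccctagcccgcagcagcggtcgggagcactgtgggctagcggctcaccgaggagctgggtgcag
Col18a1, chr10:77113656-77113955 (-): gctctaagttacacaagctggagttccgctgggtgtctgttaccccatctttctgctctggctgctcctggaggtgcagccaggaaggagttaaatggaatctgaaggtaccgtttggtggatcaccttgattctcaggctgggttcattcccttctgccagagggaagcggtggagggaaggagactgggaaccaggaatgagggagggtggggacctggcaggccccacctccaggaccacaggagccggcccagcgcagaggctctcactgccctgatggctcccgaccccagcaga
The annotated start sites of Col4a1 and Col4a2 lie 21 bases apart on opposite strands of chromosome 8, and the windows share 78 bases, which hold 1 match, a GGGCGG. Both windows are rich in G and C (74.0% and 73.7%), against 37.7% for Col3a1, which held a TATAAA match and neither other motif. Col1a2 held 2 CCAAT and 2 GGGCGG matches. Its window begins at 4505368, inside the gene as annotated here (from 4504814), so the window's start site is not the gene's first base. The 2 windows of Col18a1 belong to different start sites, which a table summed by gene does not separate. The upstream window held 3 GGGCGG matches and a CCAAT, and the downstream window held no match. Windows were at hand for 17 of the 21 collagen genes tested below, 19 windows in all. Of these, 13 held GGGCGG (68.4%), 8 CCAAT (42.1%) and 2 TATAAA (10.5%). The shares were 35.7%, 37.4% and 13.6% of 32851 windows of all genes. That set was not limited to genes high enough to be tested here, so the sets differ in more than encoding collagens.

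All collagens together took 0.0753%, 0.0757% and 0.0800% of the coding total in saline, 0.0544% in Cont sEV and 0.0792%, 0.0161% and 0.0894% in TIS sEV. The 3 saline libraries were close to each other, and TIS sEV replicate 2 stood far below the rest. In every library the other collagens took the largest share, between 48.4% and 67.7% of collagen coding TPM. Fibrillar collagens took 11.4% to 39.9% and basement membrane collagens 11.8% to 33.6%. The fibrillar class was the smallest in 5 of 7 libraries, all but saline replicate 1 and TIS sEV replicate 2.

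The fibrillar total was 202, 118 and 91.1 coding TPM with saline, 70.4 with Cont sEV and 120.3, 64.3 and 152 with TIS sEV, so the groups overlapped. The basement membrane total was 142, 255 and 175 with saline, 105 with Cont sEV and 155, 18.96 and 155 with TIS sEV. The other collagens summed to 409, 384 and 533 with saline, 368.5 with Cont sEV and 516, 77.9 and 587 with TIS sEV. All 3 totals overlapped between saline and TIS sEV, and in each TIS sEV replicate 2 was the lowest library. The median coding gene was at -0.30 (log2) in TIS sEV minus saline. Relative to it, the mean log2 total differed by 0.010 for fibrillar, -0.96 for basement membrane and -0.30 for other collagens. The spread within groups was larger, with pooled SDs of 0.61, 1.27 and 1.17 (n = 3 per group). Without TIS sEV replicate 2 the differences were 0.20, -0.12 and 0.47. The fibrillar difference had no steady direction, at 0.40, -0.081 and -0.27 with saline replicates 1, 2 and 3 left out in turn, -0.25 with TIS sEV replicate 3 left out, -0.12 with deposited TPM and -0.043 without its highest gene. The other collagens were at 0.14 as a ratio of group means and -0.82 without TIS sEV replicate 3. The basement membrane class was at -0.50 as a ratio of group means, -0.35 without its highest gene and -1.46 without TIS sEV replicate 3. The total of the basement membrane class was 0.704, 2.16 and 1.93 times the fibrillar total with saline, 1.49 times with Cont sEV and 1.29, 0.295 and 1.02 times with TIS sEV. This ratio, which no scaling of a library can alter, overlapped between the groups. Its mean log2 difference of -0.97 went to -0.32 without TIS sEV replicate 2, to -1.48 with saline replicate 1 left out, to -1.38 with TIS sEV replicate 1 left out and to -0.31 when the highest gene of each class was left out.

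**Figure D1:**
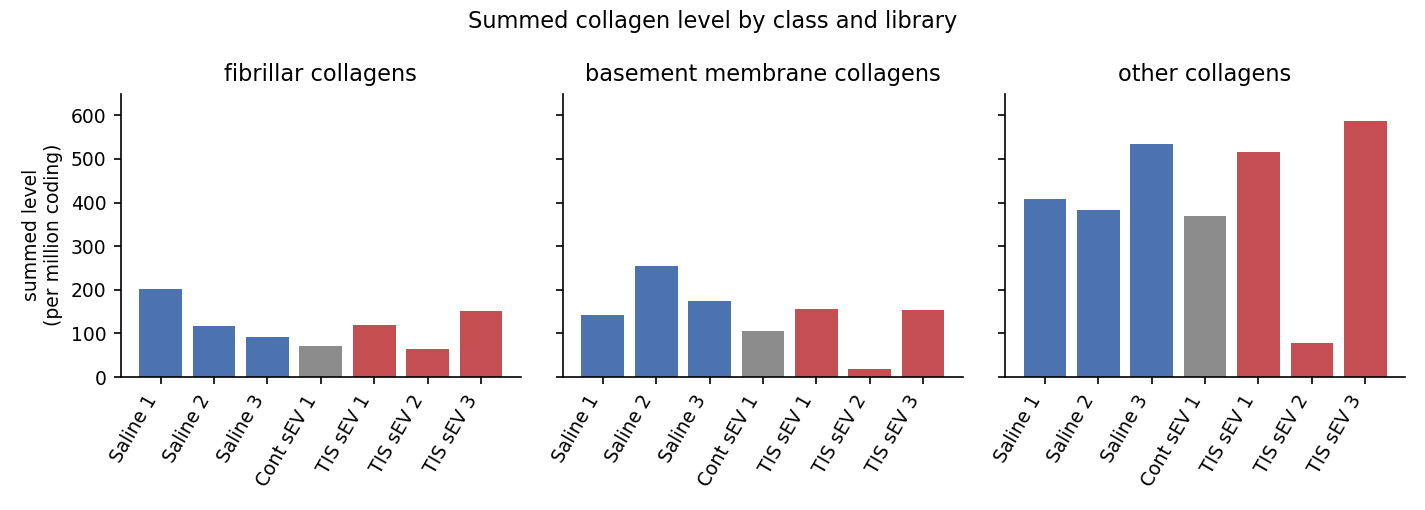
Summed coding TPM of fibrillar, basement membrane and other collagens (y axis, from 0) in each of the 7 libraries (x axis), as bars coloured by group (blue saline, grey Cont sEV, red TIS sEV). TIS sEV replicate 2 is the lowest bar in every panel, at 64.3, 18.96 and 77.9.

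Of the 44 members, 21 reached 1 coding TPM in at least 3 libraries and were tested: 7 of 11 fibrillar, 5 of 8 basement membrane and 9 of 25 other collagens. None passed in any of the 3 comparisons (limma on log2(coding TPM + 1), Benjamini-Hochberg adjusted p under 0.05), and neither did any of the 11444 coding genes tested (0% in each comparison). At an unadjusted p under 0.05, TIS sEV against saline had 1789 genes, 12.6% of all tested genes as lower and 3.03% as higher. Of the 21 collagens, 2 were lower, Col18a1 and Col4a5, and 0 higher. Col4a5 passed the filter only through the saline libraries, so its direction was largely set by the filter. Over the 21, the median difference relative to the median gene was -0.24, with 13 below and 8 above. Without TIS sEV replicate 2 the median was 0.34, with 14 of 21 above. The class medians were 0.075 for fibrillar, -0.45 for basement membrane and -0.24 for other collagens, and 0.24, 0.38 and 0.45 without that library. The counts and medians over the 21 and over the basement membrane class include Col4a5. Differences below are given relative to the median gene on the log2(coding TPM + 1) scale, which understates those of low genes, and their adjusted p tests the fitted difference against 0.

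**Figure D2:**
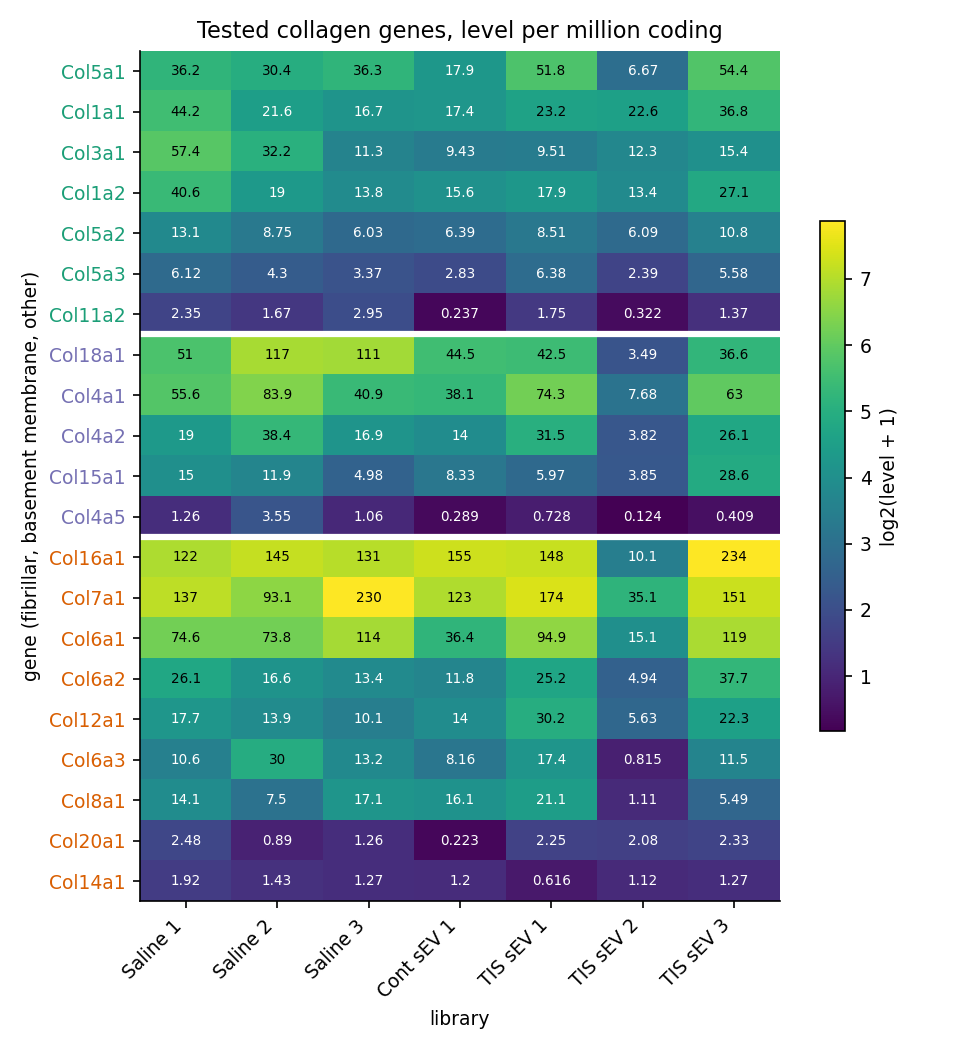
Coding TPM of the 21 tested collagen genes (rows, grouped as fibrillar in green, basement membrane in purple and other in orange lettering) in 7 libraries (columns). Colour gives log2(coding TPM + 1) and the printed number is the coding TPM; Col16a1 and Col7a1 are the highest rows by their mean, and the column of TIS sEV replicate 2 is dark for most genes.

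Among fibrillar genes, Col5a1 had the highest mean level over the 7 libraries, above both chains of collagen I. Col5a1 encodes a chain of collagen V, which starts fibrils and limits their width (chromosome 2, 27886425 to 28039514, GRCm38). It was at 36.2, 30.4 and 36.3 coding TPM with saline, 17.9 with Cont sEV and 51.8, 6.67 and 54.4 with TIS sEV. The TIS sEV libraries lay on both sides of the saline range. Its difference of -0.015 (SE 0.69, limma adjusted p = 0.795) was 0.76 without TIS sEV replicate 2 (adjusted p = 0.415), 0.092 without saline replicate 1 and 0.0013 without saline replicate 3.

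Col1a1 and Col1a2 encode the chains of collagen I, the main fibril protein of skin, bone and tendon. Col1a1 (chromosome 11, 94936224 to 94953042) was at 44.2, 21.6 and 16.7 coding TPM with saline, 17.4 with Cont sEV and 23.2, 22.6 and 36.8 with TIS sEV. Col1a2 (chromosome 6, 4504814 to 4541544) was at 40.6, 18.99 and 13.8 with saline, 15.6 with Cont sEV and 17.9, 13.4 and 27.1 with TIS sEV. Saline replicate 1 was the highest library for both chains, and the groups overlapped. Differences were 0.39 (SE 0.38) for Col1a1 and 0.075 (SE 0.43) for Col1a2, and 0.34 and 0.14 without TIS sEV replicate 2 (limma adjusted p of 0.759 to 0.996 in these fits). Leaving out saline replicates 1, 2 and 3 in turn put Col1a1 at 0.85, 0.26 and 0.081, and leaving out TIS sEV replicates 1 and 3 put it at 0.65 and 0.17. Col1a2 was at -0.054 and -0.27 with saline replicates 2 and 3 left out in turn, and at -0.18 with TIS sEV replicate 3 left out.

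Col3a1 encodes collagen III of fine reticular fibres (chromosome 1, 45311538 to 45349706). It was at 57.4, 32.2 and 11.3 coding TPM with saline, 9.43 with Cont sEV and 9.51, 12.3 and 15.4 with TIS sEV. Saline replicates 1 and 2 were above every vesicle library, while saline replicate 3 was among them. The difference was -0.82 (SE 0.53, limma adjusted p = 0.323) and -0.99 without TIS sEV replicate 2 (adjusted p = 0.4499), and it stayed below the median gene under all 14 alternatives, from -1.46 without saline replicate 3 to -0.24 without saline replicate 1, with -0.50 without TIS sEV replicate 1. Means were 33.6 ± 23.1 with saline and 12.4 ± 2.96 with TIS sEV (SD, n = 3).

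Col5a2, the partner chain of collagen V and a neighbour of Col3a1, 24.61 kb away, was at 13.1, 8.75 and 6.03 coding TPM with saline, 6.39 with Cont sEV and 8.51, 6.09 and 10.8 with TIS sEV. Col5a3, a further collagen V chain, was at 6.12, 4.30 and 3.37, at 2.83, and at 6.38, 2.39 and 5.58 in the same order. Both spanned similar ranges in the groups, with differences of 0.21 (SE 0.35) and 0.30 (SE 0.37), the former being -0.063 without saline replicate 3. Col5a3 ranged from 0.11 without saline replicate 3 to 0.56 without saline replicate 1. Col11a2, a collagen XI chain best known from cartilage, lay between 0.237 and 2.95 coding TPM and had a difference of -0.37 (SE 0.33, limma adjusted p = 0.326). That difference depended on the scaling, being -0.00073 with deposited TPM and -0.82 with a pseudocount of 0.1, and it was -0.22 without TIS sEV replicate 2. The cartilage collagen gene Col2a1 did not exceed 0.29. The 8 cartilage markers (1 tested) summed to 15.1 to 24.7 coding TPM with saline, 9.73 with Cont sEV and 9.46 to 15.2 with TIS sEV. Of them, 7 stayed under 1 in every library, including Acan, Hapln1 and Chad, which were listed at 0 throughout. The part of cartilage cells in the level of Col11a2 was not tested.

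Col18a1 had the largest difference of the 21 tested collagens with all libraries, and without TIS sEV replicate 2 those of Col12a1 (1.03) and Col3a1 (-0.99) were as large or larger. It encodes collagen XVIII, a heparan sulfate-bearing basement membrane protein whose end fragment is endostatin (chromosome 10, 77052178 to 77166548). It was at 51.0, 117 and 111 coding TPM with saline, 44.5 with Cont sEV and 42.5, 3.49 and 36.6 with TIS sEV. Every TIS sEV library lay below every saline library, but the highest TIS sEV value and the lowest saline value were close. The difference was -1.88 (SE 0.81, limma adjusted p = 0.317), and -0.99 without TIS sEV replicate 2 (adjusted p = 0.415). It was below the median gene under all 14 alternatives (-2.35 to -0.99), with adjusted p of 0.0751 to 0.670. Col4a5, which encodes a less common collagen IV chain, also did not overlap, at 1.26, 3.55 and 1.06 coding TPM with saline, 0.289 with Cont sEV and 0.728, 0.124 and 0.409 with TIS sEV. Its difference was -0.68 (SE 0.34, limma adjusted p = 0.317), and -1.62 with a pseudocount of 0.1. Col4a5 reached 1 coding TPM only in the 3 saline libraries, so it was tested only because it was high there. Its direction and lack of overlap were thus largely set by the filter, and no conclusion is drawn from them. TIS sEV lay below saline without overlap for these 2 of 21 collagens and for 19.6% of all tested genes. It lay above for 0 collagens and 5.39% of genes.

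Col4a1 and Col4a2 encode the common network-forming chains of collagen IV. Col4a1 (chromosome 8, 11198423 to 11312826) was at 55.6, 83.9 and 40.9 coding TPM with saline, 38.1 with Cont sEV and 74.3, 7.68 and 63.0 with TIS sEV. Col4a2 (chromosome 8, 11312805 to 11449287) was at 18.95, 38.4 and 16.9 with saline, 14.03 with Cont sEV and 31.5, 3.82 and 26.1 with TIS sEV. Apart from TIS sEV replicate 2, the TIS sEV libraries lay within the saline range for both. The differences of -0.45 (SE 0.76) and -0.27 (SE 0.70) were 0.38 and 0.44 without that library (limma adjusted p of 0.557 to 0.727 in these fits), and that of Col4a2 was 0.054 without saline replicate 2. Col15a1, which encodes a collagen that links basement membranes to fibrils (chromosome 4, 47208161 to 47313167), was at 15.04, 11.9 and 4.98 with saline, 8.33 with Cont sEV and 5.97, 3.85 and 28.6 with TIS sEV. Its highest and lowest libraries were both TIS sEV, and its difference of 0.20 (SE 0.68, adjusted p = 0.937) was -0.58 without TIS sEV replicate 3 and -0.25 without saline replicate 3. The 9 endothelial markers (7 tested, none at 0 in every library) also summed highest in TIS sEV replicate 3, at 110.4 coding TPM. They summed to 43.2, 59.9 and 31.5 with saline, 39.1 with Cont sEV and 38.97 and 22.03 in TIS sEV replicates 1 and 2. With saline, Col15a1 was highest in replicate 1 and these markers in replicate 2. The fibroblast markers and the pericyte and smooth muscle markers were also highest in TIS sEV replicate 3, at 298 and 82.7. The part of any of these cell types in the level of Col15a1 was not tested.

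Within the basement membrane class, Col18a1 took 35.9%, 45.8% and 63.5% of the class total with saline, 42.3% with Cont sEV and 27.4%, 18.4% and 23.7% with TIS sEV. This share, which no scaling of a library can alter, was lower in every TIS sEV library than in every saline library. It was chosen after the values were seen and was not tested.

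**Figure D3:**
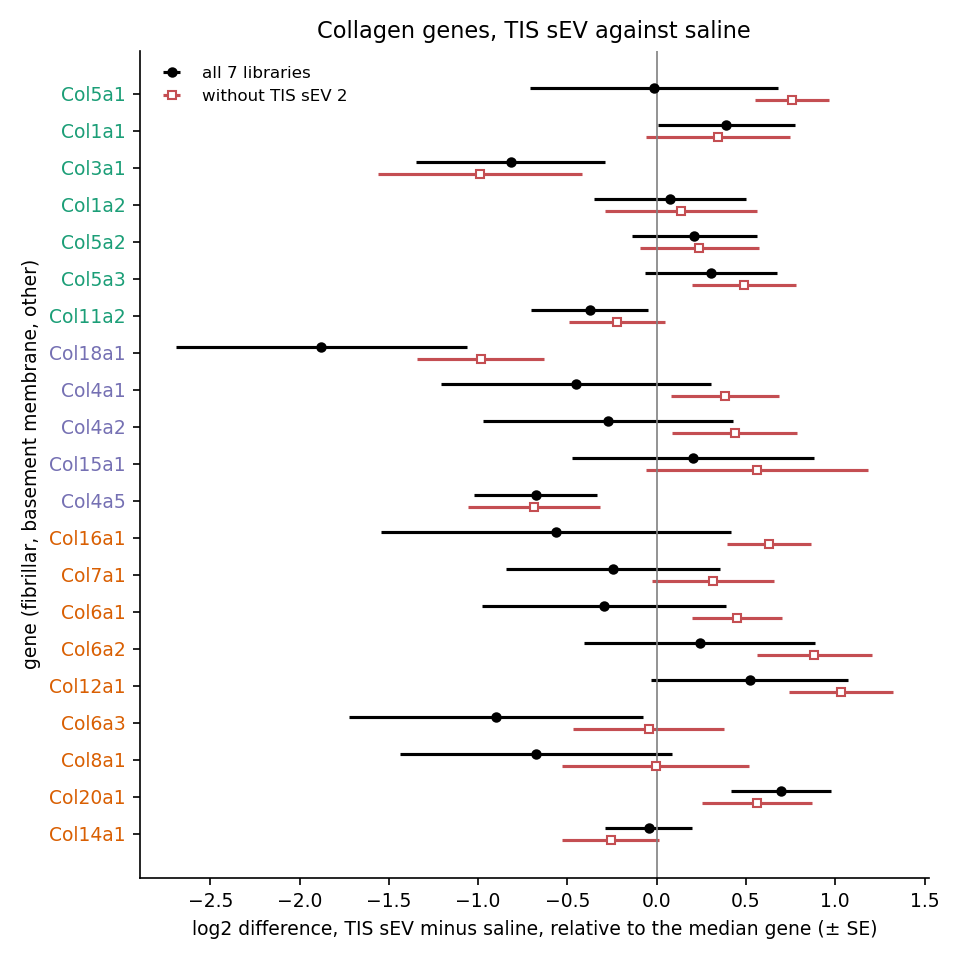
Log2 difference of TIS sEV minus saline relative to the median gene (x axis) for the 21 tested collagen genes (y axis), with all 7 libraries (filled circles) and without TIS sEV replicate 2 (open squares), bars being ± SE. Col18a1 lies furthest to the left at -1.88, and most basement membrane and other collagens shift to the right without that library.

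By their mean over the 7 libraries, Col16a1 and Col7a1 were the highest collagen genes. In saline replicate 2 Col18a1 was above Col7a1, and in TIS sEV replicate 2 Col1a1, Col6a1, Col1a2 and Col3a1 were above Col16a1. Col16a1 encodes a fibril-associated collagen (chromosome 4, 130047840 to 130099283). It was at 122, 145 and 131 coding TPM with saline, 155 with Cont sEV and 148, 10.1 and 234 with TIS sEV. Col7a1 encodes the collagen of the anchoring fibrils beneath epithelia (chromosome 9, 108953586 to 108984875). It was at 137, 93.1 and 230 with saline (mean 153 ± 69.7, SD, n = 3), 123 with Cont sEV and 174, 35.1 and 151 with TIS sEV. In both genes TIS sEV replicate 2 was the lowest library and the other TIS sEV values reached into or above the saline range. Differences were -0.56 (SE 0.98) and -0.24 (SE 0.60), and 0.63 and 0.31 without TIS sEV replicate 2 (limma adjusted p of 0.438 to 0.832 in these fits), and that of Col7a1 was 0.067 without saline replicate 3. Col7a1 exceeded Col1a1 in every library, the nearest being TIS sEV replicate 2 (35.1 and 22.6 coding TPM). Of the 7 keratinocyte and hair follicle markers (2 tested), 5 stayed under 1 coding TPM in every library. Among these, 3 (Krt1, Krt71 and Krt25) were listed at 0 in all libraries, and the 7 summed to 8.72 to 17.8. The part of these cell types in the level of Col7a1 was not tested.

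Col6a1, Col6a2 and Col6a3 encode the chains of collagen VI, which forms beaded filaments around cells. Col6a1 (chromosome 10, 76708792 to 76726168) was at 74.6, 73.8 and 114 coding TPM with saline, 36.4 with Cont sEV and 94.9, 15.1 and 119 with TIS sEV. Col6a2 was at 26.1, 16.6 and 13.4 with saline, 11.8 with Cont sEV and 25.2, 4.94 and 37.7 with TIS sEV. Col6a3 was at 10.6, 30.0 and 13.2 with saline, 8.16 with Cont sEV and 17.4, 0.815 and 11.5 with TIS sEV. The chains peaked in different libraries, Col6a1 and Col6a2 in TIS sEV replicate 3 and Col6a3 in saline replicate 2. Their differences were -0.30 (SE 0.68), 0.24 (SE 0.65) and -0.90 (SE 0.82), and 0.45, 0.88 and -0.044 without TIS sEV replicate 2. Col6a2 was at -0.30 without TIS sEV replicate 3, and Col6a3 was at -1.39 without TIS sEV replicate 1 and -0.50 without saline replicate 2.

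Col12a1 and Col14a1 encode collagens that coat the surface of fibrils. Col12a1 was at 17.7, 13.9 and 10.1 coding TPM with saline, 14.03 with Cont sEV and 30.2, 5.63 and 22.3 with TIS sEV, and its difference of 0.52 (SE 0.55) was 1.03 without TIS sEV replicate 2 (limma adjusted p = 0.829 and 0.415). Here TIS sEV replicates 1 and 3 were above all saline libraries, and the difference was 0.24 without the former, 0.29 without the latter and 0.30 without saline replicate 3. Col14a1 was at 1.92, 1.43 and 1.27 with saline, 1.20 with Cont sEV and 0.616, 1.12 and 1.27 with TIS sEV, a difference of -0.046 (SE 0.24), which was 0.13 without saline replicate 1 and 0.26 without TIS sEV replicate 1. Col8a1, a short-chain collagen of vessel walls, was at 14.1, 7.50 and 17.1 with saline, 16.1 with Cont sEV and 21.1, 1.11 and 5.49 with TIS sEV, a difference of -0.68 (SE 0.76) and of -0.0053 without TIS sEV replicate 2, -1.02 without saline replicate 2 and -1.38 without TIS sEV replicate 1. Both overlapped between the groups. Col20a1 was at 2.48, 0.89 and 1.26 with saline, 0.223 with Cont sEV and 2.25, 2.08 and 2.33 with TIS sEV, a difference of 0.69 (SE 0.28, adjusted p = 0.438), which ranged from 0.48 without saline replicate 2 to 1.01 with saline replicate 1 left out.

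The remaining 23 collagens were too low to be tested, and 20 of them stayed under 1 coding TPM in every library. Of these, 4 were listed at 0 throughout (Col10a1, Col19a1, Col26a1 and Col4a3). The highest coding TPM in any library is given in parentheses for the others. Fibrillar genes were Col27a1 (1.11), Col24a1 (0.373), Col2a1 (0.29) and Col11a1 (0.158). Basement membrane genes, both for further collagen IV chains, were Col4a6 (0.405) and Col4a4 (0.0204). Other collagens from 0.1 up were Col9a3 (1.87), Col6a5 (1.11), Col17a1 (0.704), Col13a1 (0.418), Col6a4 (0.418), Col9a1 (0.262), Col23a1 (0.251), Col6a6 (0.174) and Col9a2 (0.143). Those below 0.1 were Col28a1 (0.0666), Col25a1 (0.065), Col8a2 (0.0601) and Col22a1 (0.0165). Col4a6 was at 0.0781, 0.405 and 0.0768 with saline, 0 with Cont sEV and 0.0172, 0 and 0.0523 with TIS sEV. TIS sEV thus lay below saline without overlap for Col4a6, and above it for Col6a5. Both genes lay near the floor of the table.

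Chains that assemble into 1 molecule differed in how steady their ratio was. Col4a1 exceeded Col4a2 by 2.93, 2.19 and 2.41 times with saline, 2.71 with Cont sEV and 2.36, 2.01 and 2.41 with TIS sEV. Its ratio thus varied 1.46-fold over 7 libraries in which Col4a1 went from 7.68 to 83.9 coding TPM. Col1a1 to Col1a2 was similarly steady, at 1.09, 1.13 and 1.21 with saline, 1.12 with Cont sEV and 1.30, 1.68 and 1.36 with TIS sEV, and each TIS sEV ratio was above each saline ratio. The ratio of Col5a1 to Col5a2 ran from 1.09 in TIS sEV replicate 2 to 6.08 in TIS sEV replicate 1 and varied 2.21-fold without the former. Col6a1 to Col6a2 ran from 2.85 to 8.46. Col6a2 to Col6a3 ran from 0.552 in saline replicate 2 to 6.06 in TIS sEV replicate 2, a 10.99-fold range and 5.95-fold without the latter.

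Between fibrillar types, Col3a1 was 1.30, 1.49 and 0.674 times Col1a1 with saline, 0.541 times with Cont sEV and 0.41, 0.546 and 0.419 times with TIS sEV. Every vesicle library lay below every saline library. Against Col1a2, the ratios of Col3a1 were 1.41, 1.69 and 0.818 with saline, 0.603 with Cont sEV and 0.532, 0.919 and 0.57 with TIS sEV, and the groups overlapped. Ratios are free of library scaling, were chosen after the values were seen and were not tested.

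**Figure D4:**
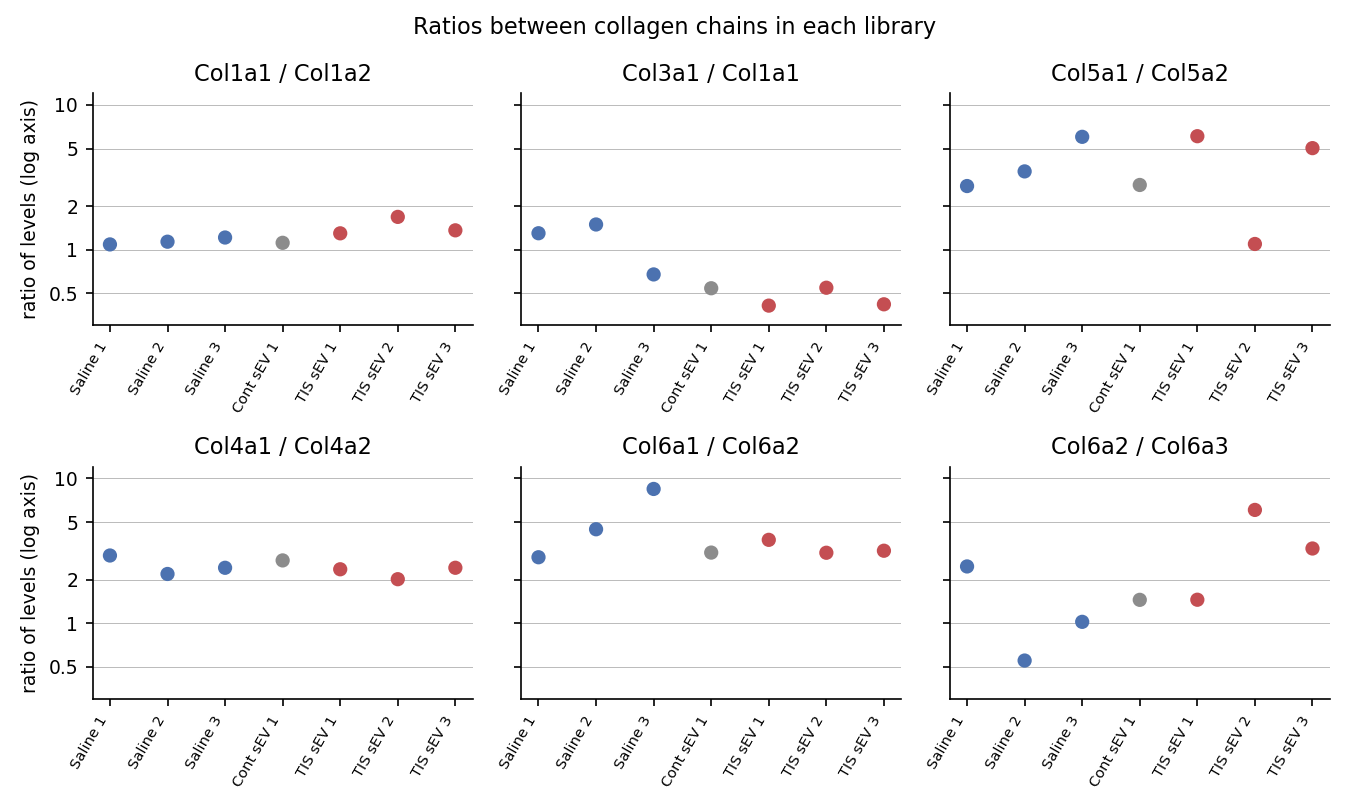
Ratio of coding TPM between collagen chains (y axes, log scale) in each of the 7 libraries (x axes), coloured by group (blue saline, grey Cont sEV, red TIS sEV). Col4a1 to Col4a2 stays between 2.01 and 2.93, Col3a1 to Col1a1 is lower in all vesicle libraries than in saline, and Col6a2 to Col6a3 spreads from 0.552 to 6.06.

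TIS sEV replicate 2 divided the collagens. It was the lowest of the 7 libraries for 15 of 21 tested collagens and for 46.4% of all tested genes: 5 of 5 basement membrane, 7 of 9 other and 3 of 7 fibrillar. Its level over the mean of TIS sEV replicates 1 and 3 had a median of 0.214 over the 21 collagens and 0.694 over all 11444 genes. Col3a1 (0.989), Col1a1 (0.753), Col5a2 (0.63) and Col1a2 (0.597) were nearest to 1 among the abundant collagens, as were the low genes Col14a1 (1.18) and Col20a1 (0.91). Col16a1 (0.0528), Col6a3 (0.0565), Col8a1 (0.0836), Col18a1 (0.0881) and Col4a1 (0.112) were at the other end. Fibrillar genes were not alike, since Col5a1 was at 0.126. The same library had the highest ribosomal RNA share, and its fat cell markers Adipoq (8.82 coding TPM) and Plin1 (1.15) were above those of the other libraries (at most 0.605 and 0.0215). The 4 adipocyte markers, none at 0 in all libraries, summed to 12.0 there and to 1.30 in Cont sEV. They summed to 0 and 0.103 in the other TIS sEV libraries and to 0.0972 to 0.314 with saline. The part of these in the collagen pattern was not tested.

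**Figure D5:**
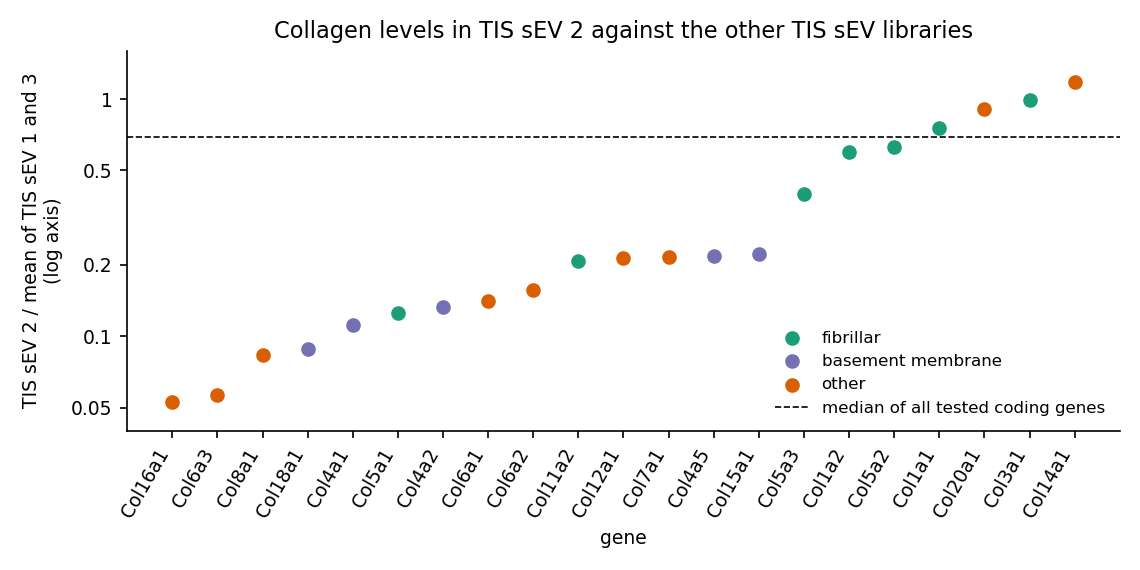
Level in TIS sEV replicate 2 divided by the mean of TIS sEV replicates 1 and 3 (y axis, log scale) for each tested collagen gene (x axis, sorted), coloured by class, with the median of all tested coding genes, 0.694, as a dashed line. Col1a1, Col1a2, Col3a1 and Col5a2 lie near the line, and all basement membrane genes lie at 0.223 or below.

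The lone Cont sEV library was below all 3 saline libraries for 13 of 21 tested collagens (63.5% of all tested genes) and above them for 1, Col16a1 (12.9%). It was below for 4 of 5 basement membrane, 4 of 7 fibrillar and 5 of 9 other collagens. Against saline, 2 collagens had an unadjusted p under 0.05 in limma, Col11a2 and Col20a1, both lower, beside 15.5% of all genes (1776). Against Cont sEV, TIS sEV had 1, Col20a1 as higher, beside 3.91% (447). Median differences of the 21 collagens relative to the median gene were -0.12 for Cont sEV against saline and 0.019 for TIS sEV against Cont sEV. The comparisons share libraries, and with 1 Cont sEV library its spread was assumed to be that of the other groups.

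Genes whose products make, process, bind or cut collagen were listed beside the members, and no gene of the 6 lists passed in TIS sEV against saline (0% of all genes). Of 23 synthesis and secretion genes 22 were tested, 15 below and 7 above the median gene, with a median of -0.23 and 0.040 without TIS sEV replicate 2. Serpinh1, the collagen chaperone Hsp47, averaged 232 ± 26.3 coding TPM with saline and 138 ± 76.0 with TIS sEV (SD, n = 3), a difference of -0.64 (SE 0.46) and of -0.20 without TIS sEV replicate 2. Ppib, a prolyl isomerase, and P4hb, a subunit of prolyl 4-hydroxylase, had differences of -0.0093 (SE 0.33) and 0.43 (SE 0.30), and 0.23 and 0.60 without that library. The 11 tested cleavage and crosslinking genes had a median of 0.18 (0.21 without that library), with Pcolce, an enhancer of propeptide removal, at 0.42 (SE 0.58), Tgm2, a transglutaminase, at 0.18 (SE 0.30) and Bmp1, which removes the fibrillar end propeptide, at -0.80 (SE 0.50). Without TIS sEV replicate 2 these were at 0.97, 0.25 and -0.37. For the 8 tested fibril-binding proteins the median was 0.031, and 0.17 without that library. Fn1, fibronectin, averaged 1315 ± 244 with saline and 594 ± 437 with TIS sEV (-1.37, SE 0.76), while the proteoglycan Bgn was at 1.07 (SE 0.51) and Sparc, a collagen-binding protein, at 0.42 (SE 0.40). Without TIS sEV replicate 2 they were at -0.49, 0.68 and 0.59.

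The 13 tested basement membrane partners had the lowest median of the 6 lists, -0.89, with 10 below the median gene, and -0.20 without TIS sEV replicate 2. The laminin chains Lama5, Lamc1 and Lamb1 had differences of -0.88 (SE 0.78), -1.17 (SE 1.01) and -1.20 (SE 0.64), and 0.018, 0.041 and -0.51 without that library. For the 8 tested collagen receptors the median was -0.37 (-0.29 without that library), with Itgb1, the shared integrin chain, at -0.92 (SE 0.56), and the kinases Ddr1 and Ddr2 at -0.72 (SE 0.68) and -0.48 (SE 0.37). Without TIS sEV replicate 2 these 3 were at -0.36, 0.0072 and -0.29. For the 8 tested cleaving enzymes the median was 0.47, and 0.34 without that library. Ctsb, a lysosomal protease, was at -0.24 (SE 0.32), Mmp14, a membrane collagenase, at -0.88 (SE 0.65) and Mmp9, a gelatinase, at 0.66 (SE 0.38). Without TIS sEV replicate 2 they were at -0.095, -0.24 and 0.71. Mmp9 was at 211 coding TPM in Cont sEV, against 34.7 to 104 in the other libraries.

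Fibroblast markers (9 of 9 tested, none at 0 in every library) summed to 211, 161 and 89.1 coding TPM with saline, 126 with Cont sEV and 271, 122 and 298 with TIS sEV, so saline replicate 1, the library highest in Col1a1, Col1a2 and Col3a1, was also the highest of the saline group here. Most of this sum was Thy1, which other cells also express. Dcn, the proteoglycan decorin, chosen after its values were seen, was at 31.9, 29.4 and 2.57 with saline and 3.24 with Cont sEV. With TIS sEV it was at 24.2, 15.9 and 8.90. Dcn was low in the saline library that was lowest in Col3a1, but it was at 24.2 in TIS sEV replicate 1, where Col3a1 was at 9.51. The fibroblast sum was highest in TIS sEV replicates 3 and 1, where Col3a1 was at 15.4 and 9.51. Pericyte and smooth muscle markers (6 of 8 tested) summed to 33.3 to 58.6 with saline and 35.5 to 82.7 with TIS sEV, with none at 0 throughout. Of 8 bone markers, 4 were tested and Sp7 was at 0 in every library. The 8 summed to 52.6 to 196 with saline, 36.6 with Cont sEV and 15.1 to 24.6 with TIS sEV. TIS sEV lay below saline without overlap in this sum, for 1 of the 4 tested bone markers and for 19.6% of all tested genes. Skeletal muscle markers summed to 58.5 in saline replicate 3 and 2.69 to 9.76 elsewhere. The 8 epithelial tumour markers summed to 2512 to 5614 with saline and 1891 to 3833 with TIS sEV. The part of these cell types in the collagen levels was not tested.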

How the data were processed

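The authors deposited 1 table of gene TPM values with 55487 rows and 7 columns. Salmon 1.4.0, DESeq2 1.28.0, Trim Galore 0.6.6 and FastQC 0.11.9 are named, with build GRCm38.p6, in the submitters' processing notes, without their roles. Annotation, strandedness and how transcripts were summed are not stated in the labels used. Saline columns carry the labels' words. CE was read as Cont sEV and NcE as TIS sEV from the treatment protocol, and comparisons with vesicle groups rest on this reading. GENCODE M21 matched 55227 identifiers and gave types, symbols and coordinates. Exons of Col3a1, Col4a1, Col4a2, Col5a1, Col7a1, Col15a1 and Col20a1 overlap other annotated genes by 14 to 212 bases, so reads there may be shared.

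TPM was rescaled to a nuclear protein-coding total of 1000000 per library. limma 3.58.1 in R 4.3.3, with intensity trend and 1 mean per group, was run on log2(value + 1) for 11444 genes at 1 or more in at least 3 libraries, with Benjamini-Hochberg adjustment, a threshold of 0.05 and 4 residual degrees of freedom. The method was run on simulated data with planted differences larger than any collagen difference given here and with no outlying library. That run gives no power or error rate for differences of the size reported. The depth per library is unknown, so precision is given as the spread between libraries. Members, lists and tests were chosen with earlier results of these data known. By the naming rule, values per library were given for the tested collagens of highest mean in each class and for any not overlapping between groups, untested ones were named with their highest value, and each list of helper genes was given by counts, median and its 3 highest members. Alternatives changed scaling, pseudocount, filter, variance model, replicate block, samples and class sums, and each saline or TIS sEV library was left out in turn.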

Additional observations from a re-analysis of the deposited data

How the results depend on the processing

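No collagen passed under any of the 14 alternatives to the TIS sEV against saline fit, and at most 4 had an unadjusted p under 0.05. Counts of called coding genes in limma moved from 0 to 19 for TIS sEV against saline, 5 for Cont sEV against saline and 2 for TIS sEV against Cont sEV with deposited TPM, to 1, 51 and 48 with no filter, and to 1 in each comparison with Cont sEV with a filter on the mean. Leaving out 1 library gave 0 to 1 for TIS sEV against saline, the 1 being without TIS sEV replicate 2. With the replicate number as a block, 3 genes were called in TIS sEV against saline. Whether the numbers pair the libraries is not stated. Deviations of same-numbered saline and TIS sEV libraries from their group means correlated at -0.29, -0.018 and -0.050 across genes. These values cannot decide it, since TIS sEV replicate 2 enters the mean from which every TIS sEV deviation is taken. The median gene differed by -0.64 between TIS sEV and saline with deposited TPM and by -0.037 with size factors.

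Of 288 collagen values under alternatives, 21 turned direction, 19 of them when 1 library was left out. Col5a1 turned to 0.0072 with size factors, and Col1a2 to -0.12 with no filter. Leaving out 1 library gave ranges of -0.89 to 0.38 for Col4a1, -0.64 to 0.44 for Col4a2, -0.58 to 0.62 for Col15a1, -0.50 to 0.76 for Col5a1, -0.27 to 0.57 for Col1a2, -0.063 to 0.53 for Col5a2, -1.40 to 0.63 for Col16a1, -0.58 to 0.31 for Col7a1, -0.83 to 0.45 for Col6a1, -0.30 to 0.88 for Col6a2 and -0.26 to 0.26 for Col14a1. The other 10 tested collagens kept their direction in every alternative that gave a value. Col4a5 had 9 of 14, since it did not pass the filter when any saline library was left out, with deposited TPM or with size factors. The cause of these turns was not tested. Class totals moved by less than the pooled SD. With 3 libraries per group and unknown depth, differences of this size were not separable from the spread.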

Other observations

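Some collagens too low to be tested were highest in the same libraries. Col6a5, a collagen VI-like chain, was at 1.11 coding TPM in Cont sEV, 1.04 in TIS sEV replicate 2 and 0.869 in TIS sEV replicate 3. It was at 0.143 in TIS sEV replicate 1 and at 0.141, 0.137 and 0.00779 with saline. Col9a1, a fibril-associated chain of cartilage, was at 0.223 in Cont sEV and 0.262 in TIS sEV replicate 2 and listed at 0 elsewhere. These values are near the floor of the table.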
